A study of Mus musculus with 6 samples.

Results

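The genes described here are the ligands and receptors of the tumour necrosis factor (TNF) superfamily and the TNF receptor-associated factors (TRAFs). They were chosen by gene symbol alone, as every gene of the deposited expression table named Tnf, Tnfsf, Tnfrsf, Traf, Fas, Fasl, Cd27, Cd40, Lta, Ltbr, Ngfr or Eda2r, which gave 44 of 22246 genes. Of these, 24 encode receptors, 12 encode ligands, 7 encode TRAFs and 1, Tnfsf13os, is an antisense RNA of the Tnfsf12 and Tnfsf13 locus. The study compared 3 HL-1 libraries whose shRNA (short hairpin RNA) is labelled control with 3 whose shRNA is labelled as directed against Smyd4, a SET and MYND domain protein of the lysine methyltransferase family. HL-1 is an established mouse line derived from atrial cardiomyocytes, and the labels give the strain C57BL/6 and the tissue heart for all 6 libraries. The number of hairpins and the time after their delivery were not stated there. Separate cultures are not named either, so the p-values reflect only how far these samples spread, and that spread may be technical.

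TNF family ligands are mostly made as membrane proteins that act as trimers, on the cell surface or after shedding by a protease. Their receptors carry cysteine-rich repeats outside the cell. Inside, some have a death domain that can lead through Fadd to caspase 8, and others bind TRAF adaptors, which pass the signal through ubiquitin chains and kinases to NF-kB and JNK. In the heart, TNF and its receptors Tnfrsf1a and Tnfrsf1b are known for their part in inflammation and in responses to injury.

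Several facts of the whole series bear on these genes. The libraries held between 20755856 and 26387606 reads assigned to genes. Smyd4 mRNA stood at 12.9 ± 0.539 FPKM (fragments per kilobase of transcript, with library scaling by size factors; SD, n = 3) in control libraries against 12.3 ± 0.348 FPKM in the others, with overlapping values (exact two-sided permutation test, p = 0.2, where 0.1 is the smallest p this design allows). The target mRNA, only slightly lower, thus does not bear out the label, and the second group is called the libraries labelled Smyd4 shRNA. Of 5 cardiomyocyte markers found in the table, only Tnnt2 reached a mean of 1 FPKM (7.11 and 11.7 FPKM). Myh6, Actc1, Ryr2 and Myl7 had group means from 0 to 0.0720 FPKM. Nppa, also on the list of cardiomyocyte markers, had no match in the table. The summed level of 6 fibroblast genes lay between 238.7 and 245 FPKM in the control libraries and between 270.05 and 282 FPKM in the labelled libraries, with Col1a1 (37.6 and 69.3 FPKM) higher and Dcn (26.3 and 1.72 FPKM) lower. Markers of immune cells were scarce, since Ptprc and Adgre1 were at 0 in the control libraries and at 0.00615 and 0.00992 FPKM in the labelled ones, and the 2 lymphocyte markers found summed to at most 0.0869 FPKM. Of 6 macrophage and monocyte genes, whose summed level lay between 29.2 and 30.6 FPKM in the control libraries and between 21.4 and 23.2 FPKM in the labelled libraries, Cd14 (27.9 and 18.6 FPKM) and Cd68 (1.96 and 1.72 FPKM) had a mean over all libraries of at least 1 FPKM. Lyz2 was higher in the labelled libraries (0.228 and 1.69 FPKM, edgeR adjusted p = 0.000125), with 9, 6 and 6 reads against 18, 25 and 98. It passed the edgeR filter on low reads only through the labelled libraries, so a rise was built into its passing it. The third labelled library stood apart in such markers: it held all reads of Ptprc and Adgre1, and of the 5 endothelial genes Kdr had 0, 0 and 10 reads, Pecam1 1, 3 and 15 and Cdh5 12, 2 and 26 in the labelled libraries. The endothelial genes summed to between 0.133 and 0.179 FPKM in the control libraries and between 0.0498 and 0.612 FPKM in the labelled libraries. Without that library limma called 2 members higher and 11 lower and edgeR 4 and 15, against 3 and 11 and 5 and 15 with it. In these bulk libraries fewer cells of a type and less RNA per cell cannot be told apart, and the part of these marker changes in the results on the family was not tested.

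Most TNF receptors and TRAFs that the cells expressed had less mRNA in the libraries labelled Smyd4 shRNA. The death receptor Fas was 6.04-fold lower, the costimulatory receptor Tnfrsf9 3.69-fold lower and the neurotrophin receptor Ngfr 15.4-fold lower by mean FPKM. The few that rose did so modestly, led by Tnfrsf25, Traf5 and the family's most abundant transcript, Tnfrsf12a. Groups were compared with limma on log2(FPKM + 0.5), a scale that understates the change of low genes, with Benjamini-Hochberg adjustment across every tested gene and a threshold of 0.05. A mean of 1 FPKM or more across all libraries, which 20 of the 44 members had, was required for this test. In limma, 11 of these 20 were lower and 3 higher, with 6 not called. Over all 11325 genes tested, 23.3% were called lower and 25.1% higher. The median log2 change was -0.18 over the tested members and 0.02 over all genes tested. At least 2-fold falls were called for 2 of the 20, against 2.24% of all genes, and at least 2-fold rises for 0, against 0.424%. Control and labelled values did not overlap for 15 of the 20, against 57.8% of all genes tested. Fas and Tnfrsf9, which made these falls, passed the filter on low values only through their control libraries, so a difference was built into their passing it, and the same holds for Tnfsf15 and its labelled libraries. The filter also left out low members with large changes. The edgeR quasi-likelihood test on the whole reads recovered from the deposited values tested 28 members and called 15 lower and 5 higher, where 26.3% and 23.3% of the 13775 genes it tested were called. In edgeR 6 of the 28 were at least 2-fold lower, against 5.70% of genes, and 0 at least 2-fold higher, against 1.39%. Ngfr and Tnf, among these falls, passed the edgeR filter on low reads only through their control libraries, so a difference was built into their passing it. The groups did not overlap for 20 of the 28, against 55.2%. DESeq2 on the same reads called 15 of the 44 members lower and 3 higher. Of the 17068 genes to which it gave an adjusted p, 17.6% and 15% were called. Some members with very few reads, such as Fasl and Tnfsf10, got no adjusted p from it. The authors' deposited table lists 18 of the 44 members, 3 higher and 15 lower, where 25.2% of the genes of the expression table are listed in either direction.

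**Figure D1:**
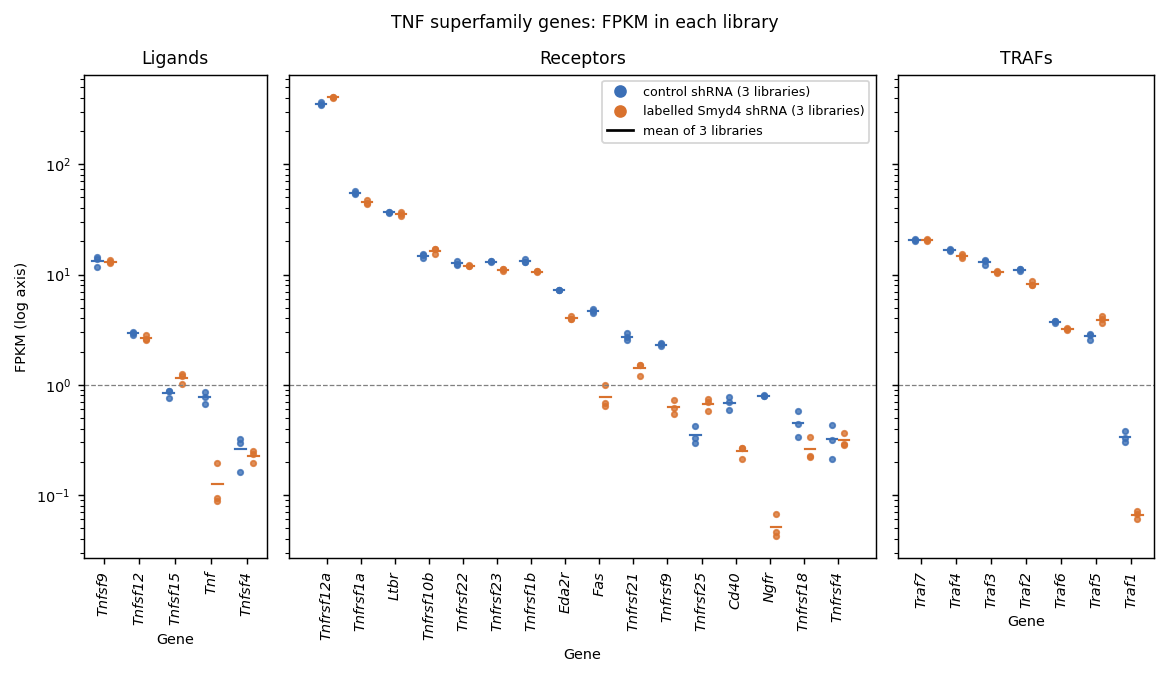
FPKM of the 28 members tested by edgeR, in each library (points; log axis) with the mean of 3 libraries (short lines), split into ligands, receptors and TRAFs; the dashed line marks 1 FPKM. Tnfrsf12a lies above all other members, and the largest gaps between the groups are those of Ngfr, Tnf, Fas and Traf1.

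The promoters are shown first for the 5 members with the largest falls by mean FPKM among those that edgeR tested and that have a window, with or without a motif, and for Traf3, which carries the same letters as Tnfrsf9. RefSeq windows of the 250 bases before the start site (build GRCm38.p6) were found for 35 of the 44 members, in 39 windows. NF-kB proteins bind sequences of the form GGG, any 5 bases and CC (the kB motif), and AP-1, a JNK target, binds TGANTCA. The letters below run 5′ to 3′ on the strand of the gene, and capitals mark every match to either motif on either strand, with overlapping matches joined.
Tnfrsf9 (chr4:150927749-150927998, + strand, the downstream of 2 start sites): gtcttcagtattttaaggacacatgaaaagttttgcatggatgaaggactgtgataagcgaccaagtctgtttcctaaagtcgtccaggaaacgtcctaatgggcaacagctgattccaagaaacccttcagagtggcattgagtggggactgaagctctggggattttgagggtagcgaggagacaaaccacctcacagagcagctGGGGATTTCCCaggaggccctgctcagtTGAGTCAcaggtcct
Fas (chr19:34290409-34290658, + strand): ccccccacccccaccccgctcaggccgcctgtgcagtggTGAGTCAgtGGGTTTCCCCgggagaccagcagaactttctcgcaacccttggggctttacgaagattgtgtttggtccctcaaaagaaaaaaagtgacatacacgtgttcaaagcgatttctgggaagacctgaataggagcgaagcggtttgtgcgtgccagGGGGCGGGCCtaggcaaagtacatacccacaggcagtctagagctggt
Tnf (chr17:35202008-35202257, - strand): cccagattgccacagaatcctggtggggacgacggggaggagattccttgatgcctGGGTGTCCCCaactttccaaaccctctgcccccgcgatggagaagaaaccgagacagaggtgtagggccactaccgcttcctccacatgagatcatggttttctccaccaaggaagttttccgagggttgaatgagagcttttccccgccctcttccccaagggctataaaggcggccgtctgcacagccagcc
Ngfr (chr11:95587699-95587948, - strand): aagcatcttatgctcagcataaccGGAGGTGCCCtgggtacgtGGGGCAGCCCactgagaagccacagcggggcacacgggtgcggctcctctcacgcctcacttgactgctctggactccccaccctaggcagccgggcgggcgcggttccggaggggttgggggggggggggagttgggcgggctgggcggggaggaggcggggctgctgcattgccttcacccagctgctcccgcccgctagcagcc
Traf1 (chr2:34961773-34962022, - strand): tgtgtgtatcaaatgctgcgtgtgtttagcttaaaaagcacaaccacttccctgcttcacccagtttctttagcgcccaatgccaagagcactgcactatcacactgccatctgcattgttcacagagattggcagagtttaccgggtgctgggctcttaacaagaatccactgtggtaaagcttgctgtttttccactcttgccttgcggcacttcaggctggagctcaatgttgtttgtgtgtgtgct
Traf3 (chr12:111166120-111166369, + strand): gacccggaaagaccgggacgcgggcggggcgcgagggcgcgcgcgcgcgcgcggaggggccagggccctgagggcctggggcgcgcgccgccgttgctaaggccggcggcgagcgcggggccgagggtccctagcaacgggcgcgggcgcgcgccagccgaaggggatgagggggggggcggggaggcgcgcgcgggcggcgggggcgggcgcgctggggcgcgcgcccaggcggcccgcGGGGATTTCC
The Tnfrsf9 window holds GGGGATTTCC starting 43 bases before the start site and TGAGTCA starting 15 bases before it. The Fas window holds TGAGTCA 211 bases before its start and GGGTTTCCCC 202 bases before it. The Traf3 window ends in the same GGGGATTTCC, 10 bases before the start, while the Tnf window has GGGTGTCCCC at 194 bases and the Ngfr window only matches rich in G and C. The window of Traf1 and the upstream window of Tnfrsf9 had no match to either motif. The kB motif matched 26 of 39 member windows (66.7%) and 45.8% of 32851 windows of this length in all. It matched 12 of 15 windows of members that edgeR called lower and 4 of 5 of those called higher. Of members not called it matched 2 of 4 windows, and of those edgeR did not test 8 of 15. A narrower form, GGG, any 2 bases and TTTCC, added after the results were seen and a subset of the first, matched 3 of 39 (7.69%, against 1.41% of all windows), in windows of Tnfrsf9, Traf3 and, on the other strand, Tnfrsf25, which rose. TGANTCA matched 5 of 39 (12.8%, against 6.75%), and TGATGCAA, a C/EBP-ATF site, 0 of 39 (against 0.791%). These matches describe letters in a short window and were not tested against the changes.

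The death domain receptors were at very different levels. Fas, which binds Fas ligand and recruits Fadd (ENSMUSG00000024778, chromosome 19, 34290659 to 34327770 of GRCm38, protein coding), had 4.69, 4.85 and 4.49 FPKM in the control libraries and 0.999, 0.681 and 0.644 FPKM in the labelled libraries. The groups were far apart, with 202 to 207 reads in each control library against 24 to 47 in each labelled library. The log2 change was -2.03 (standard error 0.11; limma, adjusted p = 2.8e-06). Tnfrsf1a, the main receptor of TNF, was the second most abundant receptor at 54.7, 53.8 and 56.8 FPKM in the control libraries and 47.2, 44.0 and 44.8 FPKM in the labelled libraries. All labelled values lay below all control values, and the log2 change was -0.28, with a 95% interval from -0.36 to -0.20 (limma, adjusted p = 0.000364). Tnfrsf21, known as death receptor 6, fell from 2.54, 2.74 and 2.95 FPKM to 1.19, 1.52 and 1.52 FPKM (limma, adjusted p = 0.000307). The receptor of the death ligand Trail, Tnfrsf10b, had 14.0, 15.1 and 15.5 FPKM in the control libraries against 17.1, 15.3 and 17.2 FPKM. Here the groups overlapped and the gene was not called in limma (log2 change 0.14, 95% interval 0.02 to 0.27, adjusted p = 0.0577), while edgeR called it higher (adjusted p = 0.0158). Without replicate 2 of the labelled libraries limma called it too, at a log2 change of 0.20 (adjusted p = 0.0144). Tnfrsf22 and Tnfrsf23, mouse decoy receptors for Trail, lie 16.1 kb apart on chromosome 7. Tnfrsf23 fell from 13.1, 13.0 and 13.2 to 11.1, 11.3 and 10.7 FPKM (limma, adjusted p = 0.000568). Tnfrsf22 stood at 12.4, 13.3 and 12.2 against 11.9, 12.1 and 12.1 FPKM, without overlap between the groups but not called (limma, log2 change -0.07, 95% interval -0.16 to 0.02, adjusted p = 0.189). Both genes share 17.3% of the 50-base stretches of the Tnfrsf22 transcripts, so how the counting split such reads can touch either value. Both also overlap E230032D23Rik on the opposite strand, so their values may hold reads of that gene. Tnfrsf25, death receptor 3, is treated with its ligand below.

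Ngfr, the low-affinity neurotrophin receptor and a death domain family member (ENSMUSG00000000120, chromosome 11, 95568818 to 95587735), showed the largest relative difference of the family. It had 67, 64 and 69 reads in the control libraries against 6, 4 and 3 in the labelled libraries, or 0.795 ± 0.0152 and 0.0515 ± 0.0132 FPKM (SD, n = 3). Its mean was under 1 FPKM and limma left it untested, but edgeR on reads gave a log2 change of -3.90 (adjusted p = 4.61e-12). Ngfr passed the edgeR filter on low reads only through its control libraries, so a fall was built into its passing it. The authors' deposited table lists it with a smaller log2 change of -2.06. Eda2r, the receptor of the ectodysplasin form A2, is X-linked and fell from 7.24, 7.29 and 7.24 FPKM to 3.95, 4.25 and 3.97 FPKM, a log2 change of -0.77 (standard error 0.04; limma, adjusted p = 3.28e-06). Its ligand gene Eda, which the naming pattern did not take, was near 0 in both groups (0.00408 and 0.00665 FPKM).

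Among receptors that signal through TRAFs, the lower calls reached from strong to slight. Tnfrsf9, also called 4-1BB (ENSMUSG00000028965, chromosome 4, 150914562 to 150946102), is a costimulatory receptor best known on activated T cells. It had 2.23, 2.39 and 2.33 FPKM in the control libraries and 0.619, 0.538 and 0.727 FPKM in the labelled libraries, so the groups did not overlap. The log2 change was -1.32 (standard error 0.09; limma, adjusted p = 1.35e-05). The gene overlaps Camta1 on the opposite strand, and it is not stated whether reads were counted by strand. Cd40, which on B cells and macrophages binds the T-cell ligand Cd40lg, was low, with 63, 48 and 60 reads in the control libraries against 24, 23 and 15 in the labelled libraries (edgeR, log2 change -1.45, adjusted p = 4.03e-06). Tnfrsf1b, the second TNF receptor, which lacks a death domain, fell from 13.7, 13.1 and 13.1 FPKM to 10.7, 10.5 and 10.8 FPKM, a log2 change of -0.31 (limma, adjusted p = 0.000146). Ltbr, the lymphotoxin beta receptor that activates the non-canonical NF-kB route, had 37.2, 36.4 and 36.9 against 36.9, 33.9 and 35.2 FPKM. Its groups overlapped and it was not called (limma, log2 change -0.06, 95% interval -0.14 to 0.02, adjusted p = 0.197), except when each library was rescaled to its own sum (limma, log2 change -0.09, adjusted p = 0.0355). Ltbr and Tnfrsf1a are neighbours on chromosome 6, 35.5 kb apart.

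Tnfrsf12a, the receptor of the ligand Tweak and also named Fn14 (ENSMUSG00000023905, chromosome 17, 23675447 to 23677449), was 1 of 3 receptors that edgeR called higher, with Tnfrsf25 and Tnfrsf10b, and the only receptor that limma called higher. It was the highest of all members at 342, 354 and 364 FPKM in the control libraries and 412, 403 and 405 FPKM in the labelled libraries. Every labelled value lay above every control value, with a log2 change of 0.20 and a 95% interval from 0.13 to 0.27 (limma, adjusted p = 0.00083). Tnfrsf12a alone made up 67.4% to 68.5% of the summed receptor FPKM in the control libraries and 74.1% to 74.8% in the labelled libraries. Without it the summed receptor level was 165 to 168 FPKM in the control libraries and 136 to 144 FPKM in the labelled libraries. The sum of all receptors therefore ran from 507 to 532 FPKM in the control libraries and from 539 to 556 FPKM in the labelled libraries, although most single receptors were lower.

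**Figure D2:**
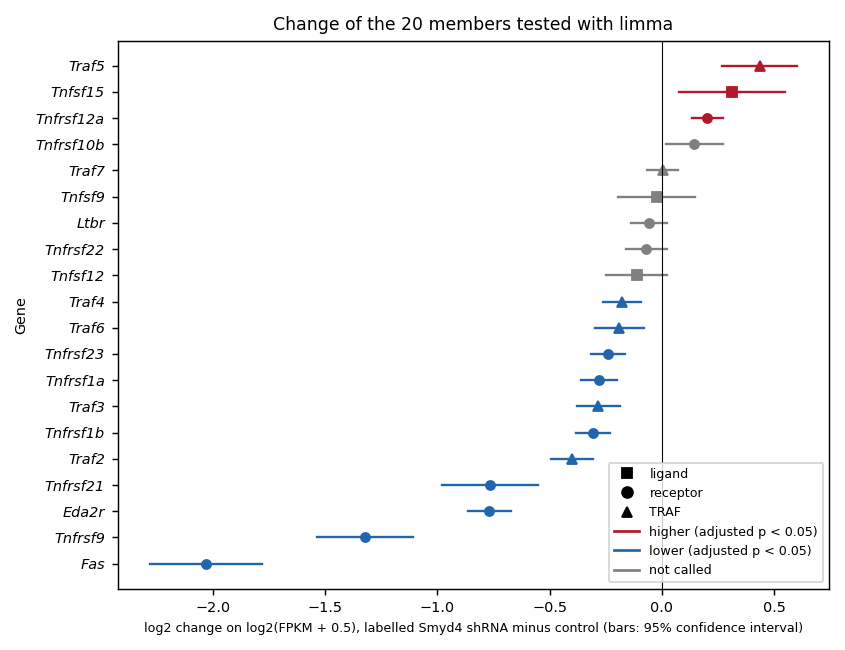
Log2 change of each of the 20 members tested with limma (labelled Smyd4 shRNA minus control, on log2(FPKM + 0.5)), with 95% confidence intervals; squares are ligands, circles receptors and triangles TRAFs. Fas (-2.03) and Tnfrsf9 (-1.32) lie farthest to the left, and Traf5 (0.44) farthest to the right.

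Ligands were scarce. At least 1 FPKM was reached by 2 of the 12 ligand genes in each control library and by 3 in each labelled library. Tnfsf9, the ligand of Tnfrsf9, was the highest at 13.8, 11.6 and 14.5 FPKM in the control libraries and 13.5, 12.9 and 12.7 FPKM in the labelled libraries. These values overlapped (limma, log2 change -0.02, 95% interval -0.19 to 0.15, adjusted p = 0.814), while its receptor fell. Tnfsf12, which encodes Tweak, the ligand of Tnfrsf12a, stood at 2.95, 2.81 and 2.99 against 2.83, 2.61 and 2.55 FPKM and was not called (limma, log2 change -0.11, 95% interval -0.25 to 0.02, adjusted p = 0.151). It lies 465 bases from Tnfsf13 on the same strand of chromosome 11, under the read-through gene Tnfsfm13, so reads in shared exons could have been assigned either way.

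Tnf itself (ENSMUSG00000024401, chromosome 17, 35199381 to 35202007), the cytokine that gave the family its name, was detected at a low level and fell. It had 34, 26 and 32 reads in the control libraries against 4, 8 and 3 in the labelled libraries, or 0.769 ± 0.0988 and 0.125 ± 0.0591 FPKM (SD, n = 3). The groups did not overlap and the mean was 6.15-fold lower (edgeR, log2 change -2.58, adjusted p = 8.82e-07). Tnf passed the edgeR filter on low reads only through its control libraries, so a fall was built into its passing it. Lta, which encodes lymphotoxin alpha and lies 1157 bases away on chromosome 17, had between 0 and 4 reads in every library. Its reads were too few for a test by edgeR.

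Tnfsf15 and its receptor Tnfrsf25 were both higher in the labelled libraries. Tnfsf15, also named TL1A, had 0.887, 0.757 and 0.872 FPKM in the control libraries and 1.26, 1.21 and 1.02 FPKM in the labelled libraries (limma, log2 change 0.31, standard error 0.10, adjusted p = 0.0358). The gene passed the 1 FPKM filter only through the labelled libraries, so a rise was built into its passing it. The call was fragile: of 11 alternatives that tested it 6 lost the call, with adjusted p from 0.00681 to 0.110. In limma the adjusted p was 0.0632, 0.110 and 0.0644 without control replicate 1, 2 or 3. Tnfrsf25 had 23, 16 and 19 reads in the control libraries against 44, 33 and 33 in the labelled libraries, or 0.349 and 0.671 FPKM. Its rise passed in edgeR (log2 change 0.93, adjusted p = 0.00343) and is listed in the authors' deposited table with a log2 change of 0.57.

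Several ligands were near 0 although their receptors were expressed. Fasl, the ligand of Fas, had at most 1 read in any library, and Tnfsf10, which encodes Trail, at most 3. The T-cell costimulatory receptors Tnfrsf4 (OX40) and Tnfrsf18 (GITR) lie 9.55 kb apart on chromosome 4. Tnfrsf4 had 7, 14 and 11 reads against 13, 10 and 8, with no called difference (edgeR, adjusted p = 0.950). Tnfrsf18 had 16, 21 and 13 reads against 9, 13 and 7, with overlapping values (edgeR, log2 change -0.77, adjusted p = 0.084). Tnfsf4, the ligand of Tnfrsf4, had 13, 7 and 15 reads against 12, 9 and 9 (edgeR, adjusted p = 0.695). The remaining 16 members, Lta, Fasl and Tnfsf10 among them, were tested by neither limma nor edgeR. None of the 44 was at 0 in all 6 libraries.

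**Figure D3:**
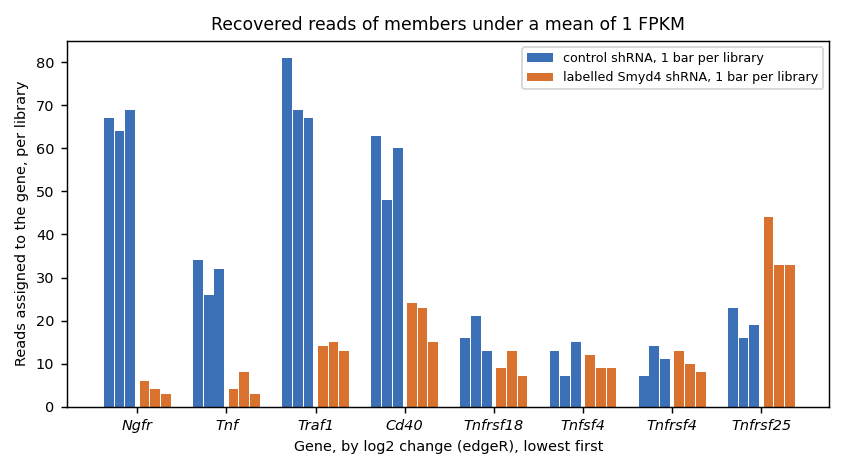
Reads recovered per library (bars from 0) for the 8 members with a mean under 1 FPKM that edgeR tested, ordered by log2 change. Ngfr, Tnf, Traf1 and Cd40 have fewer reads in each labelled library than in any control library, Tnfrsf25 has more, and the bars of Tnfrsf18, Tnfsf4 and Tnfrsf4 overlap.

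Of the 7 TRAFs, which bind the receptors' tails, edgeR called 5 lower and 1 higher, against 26.3% and 23.3% of all genes. Limma called 4 lower and 1 higher of the 6 it tested, against 23.3% and 25.1%. Traf2, the adaptor that brings the ubiquitin ligase Birc2 to the TNF receptors, fell from 10.8, 11.2 and 11.2 FPKM to 8.68, 8.0 and 8.1 FPKM, a log2 change of -0.40 (standard error 0.04; limma, adjusted p = 1.0e-04). Traf3, which holds the non-canonical kinase Map3k14 in check, fell from 13.5, 12.3 and 13.1 FPKM to 10.8, 10.4 and 10.5 FPKM (log2 change -0.28; limma, adjusted p = 0.000818). The groups did not overlap for either gene, with control and labelled SDs of 0.205 and 0.367 FPKM for Traf2 and 0.615 and 0.240 FPKM for Traf3. Traf4 fell from 16.6 ± 0.316 to 14.7 ± 0.610 FPKM and Traf6, the TRAF shared with Toll-like and interleukin-1 receptors, from 3.72 ± 0.111 to 3.20 ± 0.0458 FPKM (limma, adjusted p = 0.00492 and 0.012). Traf2, Traf3, Traf5 and Traf7 overlap another gene on the opposite strand, and Traf5 and Traf7 overlap a gene on their own strand, so their values may hold reads of that neighbour. Traf7 was not called, at 20.9, 20.2 and 20.4 against 20.9, 20.1 and 20.5 FPKM (limma, log2 change 0.00, 95% interval -0.06 to 0.07). Traf5 was the exception in direction and rose from 2.86, 2.89 and 2.52 FPKM to 3.91, 4.2 and 3.6 FPKM, a log2 change of 0.44 (standard error 0.07; limma, adjusted p = 0.00163).

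Traf1 (ENSMUSG00000026875, chromosome 2, 34941750 to 34961772), which has no RING finger and pairs with Traf2, was the lowest TRAF and changed most. It had 81, 69 and 67 reads in the control libraries against 14, 15 and 13 in the labelled libraries, or 0.338 ± 0.0427 and 0.0664 ± 0.00528 FPKM (SD, n = 3). Its mean was 5.09-fold lower (edgeR, log2 change -2.35, adjusted p = 1.06e-09). Summed over the 7 TRAFs, the level was 67.7 to 68.4 FPKM in the control libraries and 60.02 to 62.9 FPKM in the labelled libraries.

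Around the receptors, the proteins that shed TNF or carry the signal changed in part. The lists used here were chosen with earlier results of these data known and give no independent support. Of 2 tested family genes outside the naming pattern, Relt (4.30 and 3.77 FPKM) and Grn (58.6 and 61.0 FPKM), 0 were called by limma. At an unadjusted p under 0.05 limma counts 1 of these 2, and edgeR called Relt lower. Adam17, the protease that sheds TNF and its receptors, stood at 16.9 and 16.4 FPKM and was not called, while its 2 iRhom cofactors went opposite ways. Rhbdf1 rose from 15.9 ± 0.567 to 22.1 ± 0.895 FPKM and Rhbdf2, which serves Adam17 mainly in immune cells, fell from 3.70 ± 0.224 to 1.78 ± 0.102 FPKM (limma, adjusted p = 4.66e-05 and 1.98e-05). Timp3, the inhibitor of Adam17, rose from 18.5 to 21.5 FPKM (limma, adjusted p = 0.000689).

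Of 14 tested death domain adaptors, caspases and inhibitors of apoptosis, 3 were higher and 3 lower in limma, a called share of 42.9% against 48.3% of all genes. The falls were Birc2, the cIAP1 ubiquitin ligase (7.92 ± 0.493 to 4.43 ± 0.122 FPKM), Cflar, the caspase 8 inhibitor cFLIP (14.8 to 10.4 FPKM), and Ripk1, the kinase of the TNF receptor complex (4.66 to 3.65 FPKM). The rises included the necroptosis genes Ripk3 (10.5 to 12.4 FPKM) and Mlkl (26.1 to 29.5 FPKM). Casp8 (15.5 and 15.2 FPKM), Tradd (12.7 and 12.4 FPKM) and Fadd (2.94 and 3.29 FPKM) were not called. Of 30 tested genes of the ubiquitin and kinase steps, 2 were higher and 9 lower in limma, with a median log2 change of -0.05. That was 36.7% called, against 48.3% of all genes, and 30% lower, against 23.3%. Tifa, an adaptor that binds Traf6 left untested by limma for its low level, had the largest fall by mean FPKM (1.11 to 0.387 FPKM; edgeR, log2 change -1.50, adjusted p = 1.3e-07). Among the genes tested in limma the largest falls were those of Tnfaip3, the deubiquitinase A20 that ends TNF signals (5.24 ± 0.0538 to 2.74 ± 0.0892 FPKM), and its partners Tnip1 (15.5 to 8.60 FPKM) and Tnip2 (8.40 to 4.59 FPKM). The rises were Traf3ip1 (12.2 to 14.5 FPKM) and Ube2n, the Ubc13 enzyme that builds K63 chains with Traf6 (49.5 to 53.6 FPKM). The kinases Map3k7 (16.8 and 16.2 FPKM), Chuk (13.3 and 14.1 FPKM) and Ikbkb (2.23 and 2.15 FPKM) were not called.

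The tested transcripts known to be induced by TNF were lower almost throughout. Of 33 found, 9 lay under the filter and were not tested by limma. By mean over all libraries they ranged from Birc3, near 0 in both groups (0.00262 and 0.00321 FPKM), to Tnfaip6 (1.25 and 0.159 FPKM). Icam1, also near 0 (0.0318 and 0.0548 FPKM), and Mmp3 (1.25 and 0.00895 FPKM) lay between them. Of 24 tested in limma, 22 were lower and 2 higher, with a median log2 change of -1.12, where 23.3% and 25.1% of all genes were called. At least 2-fold falls were called for 12 of the 24, against 2.24% of all genes. Saa3, Il6, C3 and Ccl5 passed the filter only through the control libraries, so a difference was built into their passing it. The 3 largest falls on the log2(FPKM + 0.5) scale were Saa3 (119 to 0.220 FPKM), an acute phase protein, and the neutrophil chemokines Cxcl5 (325 to 8.39 FPKM) and Cxcl1 (127 to 3.01 FPKM). By the ratio of mean FPKM, Il6 (82.3-fold) and C3 (68.8-fold) fell more than Cxcl1 (42.1-fold) and Cxcl5 (38.8-fold). The labelled libraries held only 1, 3 and 4 reads of Saa3, 3, 3 and 1 of Il6 and 4, 9 and 33 of C3. The sizes of these falls are therefore uncertain. Cxcl1 kept 132, 145 and 127 reads there and Cxcl5 401, 390 and 334. The inhibitor Nfkbia, an NF-kB target itself, was 47.6 ± 0.993 and 13.2 ± 0.826 FPKM, named here after its values were seen. The 2 rises were Ptgs2 (25.1 to 28.8 FPKM) and Tnfaip2 (40.8 to 46.4 FPKM). These transcripts are also induced by other stimuli, and the part of TNF or its receptors in their levels was not tested.

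**Figure D4:**
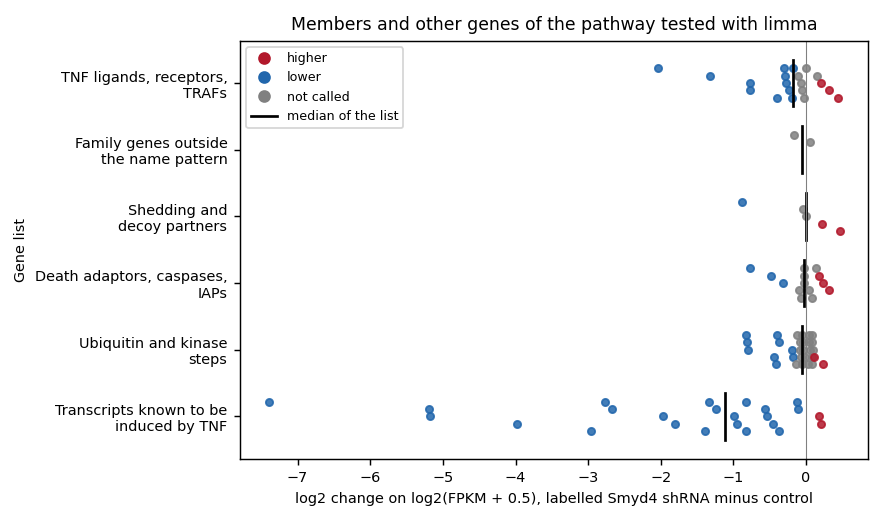
Log2 change (labelled Smyd4 shRNA minus control, limma, on log2(FPKM + 0.5)) of each tested gene of the family and of the 5 surrounding lists; colours give the call, and black lines the median. The induced transcripts reach -7.40 (Saa3) with a median of -1.12, while the medians of the other 5 lists lie between -0.18 and 0.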

How the data were processed

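Expression values were taken as FPKM per Ensembl gene, as deposited by the authors, for 22246 genes and 6 libraries. The submitters' processing notes name TopHat2 2.0.9 and Bowtie2 2.0.6 and the build GRCm38, while the sources used here do not give the counter, annotation or test. The authors' deposited comparison table gives a normalized signal per library, log2 fold changes and adjusted p-values for 5616 genes. That signal was a whole multiple of 1 step per library for 100% of values (tolerance 1e-04), and with gene lengths 100% of FPKM gave whole reads (tolerance 0.01). Lengths came from the authors, from GENCODE M21 for 13309 genes, or for 3321 genes (5 members) as the smallest length that fits, which makes those reads lower bounds. FPKM are thus scaled by size factors. Symbols were matched by Ensembl ID for 22134 genes. Members were placed on GRCm38 by the authors' coordinates or, where unlisted, by GENCODE M21.

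Genes averaging 1 FPKM or more were compared on log2(FPKM + 0.5) with limma 3.58.1 in R 4.3.3 (trend, Benjamini-Hochberg). EdgeR 4.0.16 (quasi-likelihood, TMM) and DESeq2 1.42.0 ran on recovered reads as alternatives. The tests were checked on simulated data. Members and lists were chosen with earlier results of these data known. Every member with a mean of at least 1 FPKM was named, with the 5 highest below it and up to 3 rises and 3 falls per list; other low members, the uncalled genes named from the lists, and Tifa, Il6, C3, Ccl5 and Nfkbia were chosen after their values were seen. Of each list, genes without a match in the table were not used here.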

Additional observations from a re-analysis of the deposited data

How the results depend on the processing

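Low read numbers limit the family most: 16 of the 44 members were tested by neither limma nor edgeR, and 8 only by edgeR. The count of members called higher in limma (3) became 5 with edgeR on recovered reads, and the count called lower (11) became 7 with a filter at a mean of 5 FPKM, where fewer genes are tested. From the edgeR count of 5 higher, DESeq2 gave 3. Leaving out each library in turn gave between 2 and 3 members higher and 11 lower in limma, and between 4 and 5 higher and 15 lower in edgeR. Changes not called in any setting turned direction for Traf7 (main log2 change 0.0031; -0.0324 after rescaling to the library sum, -0.0033 in edgeR, and -0.0105 to 0.0174 without each library in turn), Tnfsf9 (-0.0236; -0.1140 to 0.0387 without each library) and Tnfrsf4 in edgeR (-0.0362; -0.2531 to 0.2244 without each library). Of 409 results for single genes under alternatives, 387 kept direction and call, 6 lost the call (all Tnfsf15) and 6 gained it (Tnfrsf10b, Ltbr and Smyd4). With a replicate block on the numbers of the titles limma called 2 members higher, 11 lower and 5141 genes in all. Same-numbered libraries did not deviate together (correlations -0.03, 0.02 and 0.0069). No sign of pairing was thus seen, though 3 libraries per group cannot exclude it.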

Other observations

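Tnfsf13, which encodes the B-cell ligand April, had 5, 6 and 6 reads in the control libraries against 12, 9 and 8 reads. Limma without a filter on low values called it higher (adjusted p = 0.0364), while DESeq2 did not (adjusted p = 0.46), and edgeR did not test it.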
